A study of Mus musculus with 14 samples.

Results

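The 10 genes described here mark mesenchymal cells or drive the epithelial-to-mesenchymal transition (EMT), and were measured in a direct conversion experiment in which mouse fibroblasts became induced hepatic stem cells (iHepSCs). The genes were given as a list of names, chosen with earlier results of these data known, and all 10 were found among the 28022 genes of the deposited count table. They were Vim, Acta2, Thy1, Postn, Pdgfrb, Twist1, Prrx1, Snai2, Zeb1 and Zeb2. RNA-seq libraries were available for 7 conditions, with 2 libraries each and 14 in all, and every label gave the strain C57BL/6J.

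The condition labelled Fib held mouse embryonic fibroblasts from mid-gestation embryos, the starting cells of the conversion. The 2D-iHepSC libraries (here 2D-iH) came from iHepSCs made from such fibroblasts with lentiviral Oct4 and Hnf4α and grown as a monolayer. In the 2D-iHepSCiEC libraries (2D-iHE), iHepSCs shared the monolayer with induced endothelial cells (iECs), which were made from a human fibroblast line with ETV2 and sorted on CD144 and CD31. The 3D-iHA libraries (iHLO) came from liver organoids, spheroids of iHepSCs alone in a hydrogel of Matrigel and type I collagen. The 3D-iHEA libraries (iHEA) came from assembloids, in which iECs were mixed into that hydrogel. All 4 cultures received the same medium, which contained oncostatin M, so that all of them shared this agent and the lentiviral factors. The Adult-Liver and Fetal-Liver libraries came from whole mouse liver without any transduced factor, and whole tissue holds stellate, endothelial and blood cells beside hepatocytes. Because the iECs were human and the reads were aligned to the mouse genome, the counts describe mouse transcripts, and how many human reads reached them was not tested. The labels name replicates but do not say whether they were separate cultures or animals, so p-values measure only the spread between these libraries, which may be technical.

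In EMT, epithelial cells lose junctions and keratins and take on a motile, matrix-producing state, and the reverse step accompanies the conversion of fibroblasts into epithelial cells. SNAI and ZEB proteins are zinc finger repressors that bind E-boxes in epithelial promoters, and TWIST1 and PRRX1 are further transcription factors of mesenchyme. In liver, the mesenchymal cells are chiefly hepatic stellate cells and portal fibroblasts, which carry PDGFRB and produce alpha-smooth muscle actin (Acta2) and matrix when activated.

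The promoter letters give the setting of these factors. RefSeq promoters (GRCm38.p6) were available for 6 of the 10 genes (Vim, Acta2, Postn, Twist1, Prrx1 and Zeb2), and the 250 bases before each start were searched for the E-box CACCTG on both strands (CAGGTG on the given strand). Of the 250 bases, 0 in Vim and 33 in Acta2 lie before the annotated exons, so these windows are mostly transcribed sequence. The Zeb2 window at chr2:45117443-45117692 lies wholly before the exons, and the other Zeb2 windows have 0 such bases. None of these 6 genes held the E-box, against 11 of 14 genes in a list of epithelial genes, 4 of 5 T cell markers, 0 of 6 erythroid markers, 0 of 5 macrophage and leukocyte markers, 17.2% of all 32851 promoters and 19.4% of all genes with a promoter. Epcam, which encodes an epithelial adhesion molecule and had one of the largest increases among the epithelial genes in the organoids (log2 fold change 3.96, beside Cldn3 at 4.09 and Crb3 at 3.96), held it at 187 and 19 bases before the start. Crb3 held it 3 times in each of its 2 windows, and Cldn3, which had the largest increase of these 3 genes, did not hold it. The letters TATAAA, searched on both strands, were found in 3 of the 6 genes, Vim, Twist1 and 1 of the 2 windows of Postn, against 12.4% of all promoters and 14.3% of all genes with a promoter. The CArG box, the site of serum response factor in contractile genes, was found in 0 of the 6 genes and in 1 of 9 contractile genes, against 1.47% of all promoters. Epcam is shown because it carries the repressor motif, and Postn and Twist1 because they are fibroblast genes without it. Capitals mark the E-box in Epcam and TATAAA in Postn and Twist1. The windows lie on the plus strand at chr17:87635729-87635978, chr3:54360857-54361106 and chr12:33957421-33957670 of GRCm38, and each ends at the base before the RefSeq start.
Epcam: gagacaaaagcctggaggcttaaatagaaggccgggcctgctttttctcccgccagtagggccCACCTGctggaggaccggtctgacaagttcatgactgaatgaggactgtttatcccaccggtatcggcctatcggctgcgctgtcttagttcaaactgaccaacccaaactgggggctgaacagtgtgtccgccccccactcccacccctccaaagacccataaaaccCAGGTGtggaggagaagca
Postn: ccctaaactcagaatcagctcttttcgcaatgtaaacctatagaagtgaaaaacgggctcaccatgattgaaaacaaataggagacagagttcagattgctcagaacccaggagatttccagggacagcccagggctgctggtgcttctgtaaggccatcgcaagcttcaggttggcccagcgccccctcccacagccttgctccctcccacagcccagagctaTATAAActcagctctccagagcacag
Twist1: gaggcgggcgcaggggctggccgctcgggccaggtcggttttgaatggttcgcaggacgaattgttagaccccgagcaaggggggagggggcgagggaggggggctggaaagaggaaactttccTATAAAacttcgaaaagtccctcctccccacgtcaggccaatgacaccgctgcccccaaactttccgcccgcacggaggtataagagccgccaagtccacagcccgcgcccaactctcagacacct
A match to these letters is a description of the window and not of bound protein.

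The libraries held 20851489 to 35143325 counts. Levels are given as CPM, counts per 1e6 of the library total after TMM scaling, and 3 counts, the limit that a count of 0 allows, corresponded to 0.0771 to 0.196 CPM depending on the library. Intervals and this limit cover counting error only. The replicate libraries of iHEA and of fetal liver differed from each other more than those of the other 5 conditions (chi-square per gene 11.5 and 13.4, against 3.05 to 3.67). Differences were tested with edgeR's quasi-likelihood test and Benjamini-Hochberg adjustment over all genes of the fit, and a gene is called changed at an adjusted p under 0.05. The fit for the 4 cultures held 13409 genes and 8 of the 10 genes, and the fit over all 14 libraries held 14121 genes and 9 of them. Thy1 lay just under the filter in the larger fit, with a mean log2(count + 1) of 2.92 against the minimum of 3, and Thy1 and Postn were far under it in the cultures (0.125 and 1.40).

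Because the genes were chosen with earlier results of these data known, the condition in which each was highest is a description and no test of the mesenchymal label. The share of all genes with their highest mean in Fib was not counted. Of the 10 genes, 9 (Vim, Acta2, Thy1, Postn, Pdgfrb, Twist1, Prrx1, Snai2 and Zeb1) had their highest mean in Fib. The exception was Zeb2, which was highest in fetal liver. The summed CPM of the 10 genes was 7686 and 7724 in Fib, 1730 to 2026 in the monolayers, 634 to 801 in the iHLO and iHEA libraries, 150 to 154 in adult liver and 481 to 641 in fetal liver.

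**Figure D1:**
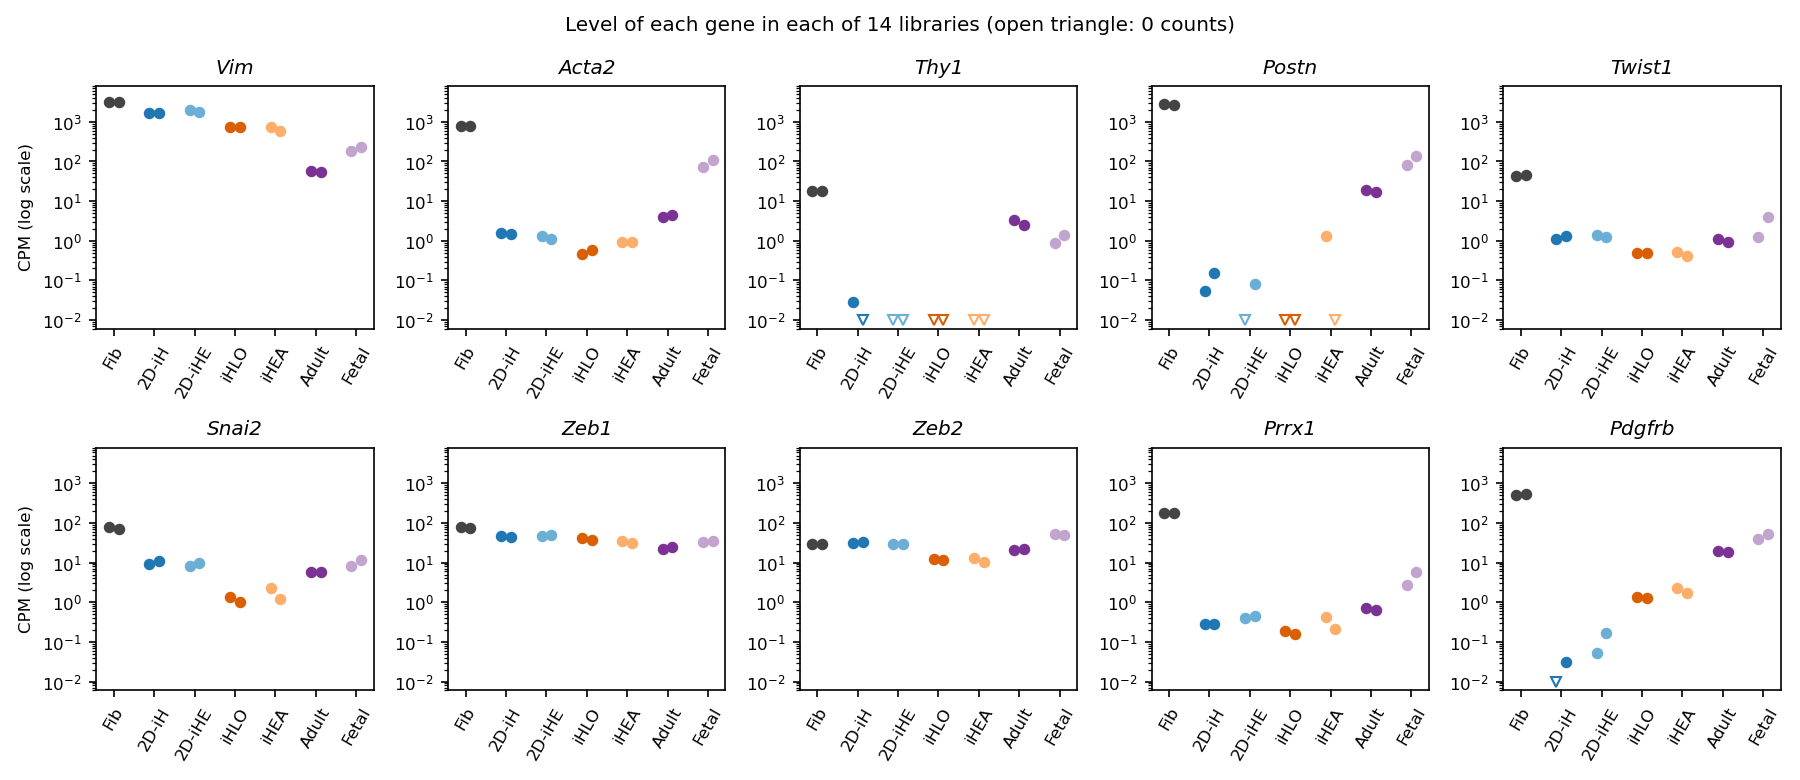
CPM of the 10 genes (log axis) in each library, 2 points per condition, with open triangles at the foot for libraries with 0 counts. Vim, Zeb1 and Zeb2 kept 23.0% to 110.9% of the Fib mean in 2D-iH and iHLO, Postn, Thy1, Prrx1, Acta2 and Pdgfrb lay far lower in the cultures, and Pdgfrb was higher in the 3D cultures than in the monolayers.

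The first question was how much of the fibroblast programme remained in iHepSCs. Of the 9 genes tested between 2D-iH and Fib, 8 were lower and 0 higher, where 83.4% of all tested genes were called and 35.6% were called lower. Of the 9 tested genes, 6 (Acta2, Postn, Pdgfrb, Twist1, Prrx1 and Snai2) were called lower by at least 2-fold, against 20.4% of all tested genes. The 9 tested genes had a median of -5.19 on the log2 scale, against 0.183 for all genes. In 2D-iH, Pdgfrb, Postn, Thy1, Prrx1 and Acta2 stood at 0.00296% to 0.188% of the fibroblast level, Twist1 at 2.75%, Snai2 at 13.7% and Vim, Zeb1 and Zeb2 at 52.2% to 110.9%.

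Vim encodes vimentin, the intermediate filament of mesenchymal cells (chr2:13573927-13582826, plus strand). Its level was 3134 and 3236 CPM in Fib, 1640 and 1682 in 2D-iH, 1937 and 1742 in 2D-iHE, with iHLO at 742 and 720, iHEA at 739 and 589, 57.2 and 53.4 in adult liver and 187 and 234 in fetal liver. The groups did not overlap except iHLO and iHEA. In 2D-iH, Vim stood at 52.2% of the Fib mean, a log2 fold change of -0.94 (SE 0.11, adjusted p = 6.8e-07).

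Zeb1 (chr18:5591860-5775467, plus strand) and Zeb2 (chr2:44983632-45117395, minus strand) encode repressors of epithelial genes such as Cdh1. Zeb1 was at 77.4 and 75.0 CPM in Fib, 45.8 and 43.9 in 2D-iH, 48.0 and 50.3 in 2D-iHE, with iHLO at 42.6 and 37.8, iHEA at 34.9 and 31.0, 21.7 and 24.1 in adult liver and 33.1 and 35.5 in fetal liver. It was lower in 2D-iH than in Fib (log2 fold change -0.76, SE 0.073, adjusted p = 6.06e-08) but kept 58.9% of the Fib mean, and only fetal liver and iHEA overlapped among neighbours in the order of its levels. Zeb2 was at 29.6 and 28.8 CPM in Fib, 31.6 and 33.2 in 2D-iH, 29.6 and 30.3 in 2D-iHE, with iHLO at 12.4 and 11.4, iHEA at 12.9 and 10.5, 20.7 and 22.7 in adult liver and 53.1 and 48.6 in fetal liver. Zeb2 was the 1 tested gene that was not called between 2D-iH and Fib (log2 fold change 0.15, SE 0.084, adjusted p = 0.111). Its direction there was not stable, since it was -0.0041 with DESeq2 size factors, and it was called at 0.15 with the replicate number as a block (adjusted p = 0.0473). An antisense transcript, Zeb2os, covers 3.27% of the Zeb2 exons, and Gm10125 covers 1.93% of those of Zeb1 on the other strand, so a small part of these counts cannot be assigned without strand information.

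Snai2, also called Slug, is a repressor of the same E-boxes (chr16:14705852-14709385, plus strand). It was at 76.9 and 69.9 CPM in Fib, 9.23 and 10.8 in 2D-iH, 8.23 and 9.63 in 2D-iHE, with iHLO at 1.38 and 1.03, iHEA at 2.24 and 1.20, 5.95 and 5.70 in adult liver and 8.15 and 11.8 in fetal liver. Fetal liver and both monolayers overlapped, as did iHLO and iHEA. In 2D-iH it was 7.34-fold lower than in Fib (log2 fold change -2.88, SE 0.15, adjusted p = 2.46e-11).

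Twist1 (chr12:33957671-33959829, plus strand) and Prrx1 (chr1:163245119-163313710, minus strand) are transcription factors of embryonic mesenchyme. Twist1 was at 42.2 and 45.3 CPM in Fib, 1.09 and 1.32 in 2D-iH, 1.36 and 1.25 in 2D-iHE, with iHLO at 0.489 and 0.499, iHEA at 0.514 and 0.425, 1.11 and 0.950 in adult liver and 1.27 and 4.05 in fetal liver. The fetal liver libraries stood apart from each other and the lower one overlapped the monolayers. Prrx1 was at 179 and 178 CPM in Fib, 0.279 and 0.283 in 2D-iH, 0.411 and 0.457 in 2D-iHE, with iHLO at 0.184 and 0.156, iHEA at 0.424 and 0.213, 0.720 and 0.634 in adult liver and 2.74 and 5.73 in fetal liver. The counts behind the culture values were only 5 to 16 per library. In 2D-iH, Twist1 was 36.4-fold lower than in Fib (log2 fold change -5.19, SE 0.28, adjusted p = 3.92e-11) and Prrx1 was 627-fold lower (log2 fold change -9.29, SE 0.24, adjusted p = 2.37e-15).

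Acta2 encodes alpha-smooth muscle actin, the contractile protein of myofibroblasts (chr19:34241090-34255590, minus strand). It was at 781 and 806 CPM in Fib, 1.53 and 1.45 in 2D-iH, 1.31 and 1.12 in 2D-iHE, with iHLO at 0.459 and 0.592, iHEA at 0.908 and 0.921, 4.06 and 4.498 in adult liver and 72.2 and 111 in fetal liver. No neighbouring conditions overlapped in this order. In 2D-iH it was 530-fold lower than in Fib (log2 fold change -9.05, SE 0.20, adjusted p = 3.83e-16).

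Postn encodes periostin, a matrix protein of fibroblasts (chr3:54361109-54391037, plus strand). It fell from 105222 and 85439 counts in Fib to 2 and 5 in 2D-iH. The other cultures held 0 and 2 counts in 2D-iHE, none in either iHLO library, and 43 and 0 in iHEA, where the 43 counts came from library 1 alone. Adult liver held 297 and 265 counts and fetal liver 2849 and 4200. The log2 fold change between 2D-iH and Fib was -14.66 (SE 0.46, adjusted p = 1.29e-13).

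Thy1 encodes a surface glycoprotein of fibroblasts that T cells also carry (chr9:44043384-44048579, plus strand). It held 663 and 550 counts in Fib, 1 and 0 in 2D-iH, and 0 in each of the other 6 culture libraries, which allows up to 0.125 CPM in the shallowest of them. Adult liver held 52 and 39 counts and fetal liver 30 and 43. With 1 count against 1213, the ratio of Fib to 2D-iH was 1198 (95% counting interval 215 to 47360), and Thy1 was not tested at the chosen filter. With the gene added to the fit, its log2 fold change was -9.87 (SE 0.42, adjusted p = 5.74e-11).

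Pdgfrb encodes a receptor for platelet-derived growth factor found on fibroblasts, pericytes and stellate cells (chr18:61045150-61085061, plus strand). It held 19403 and 16894 counts in Fib, 0 and 1 in 2D-iH, 2 and 4 in 2D-iHE, with iHLO at 44 and 41, iHEA at 75 and 48, 305 and 297 in adult liver and 1318 and 1632 in fetal liver. As CPM these were 521 and 539 in Fib, 0 and 0.0314 in 2D-iH, 1.35 and 1.28 in iHLO, 2.27 and 1.70 in iHEA, 19.95 and 18.8 in adult liver and 38.8 and 52.9 in fetal liver, and no conditions overlapped. The single count in 2D-iH against 36297 in Fib gave a ratio of Fib to 2D-iH of 35850 (95% counting interval 6434 to 1416000, adjusted p = 3.51e-17).

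Levels of different genes were compared per kb of exon. Vim had the highest CPM per kb of the 10 genes in every condition. It made up 43.5% of the summed CPM per kb in Fib, where Acta2 (23.4%) and Postn (20.7%) followed, and 96.0% to 97.0% in the 4 cultures. In the cultures the next level was far lower, with Snai2 at 4.96 and Zeb1 at 4.37 CPM per kb in 2D-iH against 350 for Vim. In fetal liver Vim (36.9%) and Acta2 (34.7%) were close, and in adult liver Pdgfrb (13.1%) and Snai2 (10.6%) came after Vim (43.0%).

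**Figure D2:**
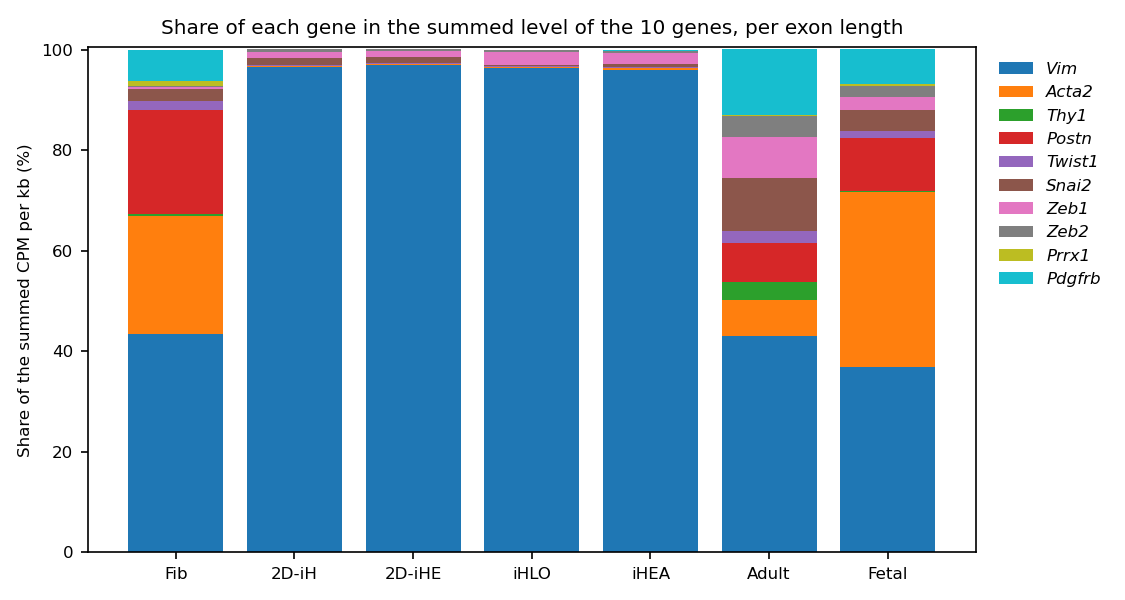
Share of each gene in the summed CPM per kb of exon of the 10 genes, by condition (bars, mean of 2 libraries, without error bars). Vim took 43.5% in Fib, 96.0% to 97.0% in the 4 cultures and 36.9% to 43.0% in the livers.

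Other genes of the mesenchymal programme were counted in fixed lists that exclude the 10 genes. Between 2D-iH and Fib, where 35.6% of all genes were called lower, 18 of 19 tested stromal surface and matrix genes were lower and 1 was higher, 10 of 11 contractile genes were lower and 1 was higher, and 11 of 14 mesenchymal transcription factors were lower and 2 were higher. Their median log2 fold changes were -6.66, -2.89 and -3.00, against 0.183 for all genes. The collagen genes Col1a2 and Col3a1 had log2 fold changes of -17.49 (SE 0.41, adjusted p = 1.93e-14) and -17.39 (SE 0.44, adjusted p = 1.09e-14), and Ogn, a small proteoglycan, had -13.68. Among contractile genes, Myl9, a myosin light chain of smooth muscle, had -11.76 (SE 0.21, adjusted p = 3.51e-17), Tpm2 -8.41 and Cnn1 -7.66. Among the transcription factors, Foxc2 and Tbx15 fell by 6.93 and 5.49 on the log2 scale, whereas Snai3 was higher by 5.44. Of 18 tested epithelial genes 16 were higher and 0 lower, with a median of 7.82, where 47.7% of all genes were called higher. Endothelial markers were higher in 6 of 9 tested cases and lower in 1, with a median of 3.96. Macrophage and leukocyte markers were higher in 3 of 7 and lower in 0. Krt8 and Krt18, the simple epithelial keratins, stood at 1134 and 626 CPM in 2D-iH against 0.0160 and 0 in Fib.

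The second question was what the 3D culture changed. Between iHLO and 2D-iH, 5 of the 8 tested genes were lower (Vim, Acta2, Twist1, Snai2 and Zeb2), 1 was higher (Pdgfrb) and 2 were not called (Zeb1 and Prrx1), where 72.1% of all genes were called, 38.1% higher and 33.9% lower. Of the 8 tested genes, 6 were called with a change of at least 2-fold, against 24.7% of all tested genes. The median over the 8 genes was -1.16, against 0.0358 for all genes. These 6 calls kept their direction under all 3 ways of scaling the libraries.

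Snai2 had the largest decrease, 7.92-fold (log2 fold change -2.99, SE 0.23, adjusted p = 7.95e-08), from 331 and 344 counts in 2D-iH to 45 and 33 in iHLO. Acta2 (log2 fold change -1.43, SE 0.28, adjusted p = 0.000436), Zeb2 (-1.38, SE 0.091, adjusted p = 1.6e-08), Twist1 (-1.21, SE 0.29, adjusted p = 0.00228) and Vim (-1.12, SE 0.084, adjusted p = 5.65e-08) fell by 2.17-fold to 2.70-fold. Zeb1 had a log2 fold change of -0.094 (SE 0.075, adjusted p = 0.28). Prrx1 had -0.65 (SE 0.50, adjusted p = 0.264) on 10 and 9 counts against 6 and 5. Whether the change of Zeb1 differed from that of Zeb2 was not tested. Postn held 7 counts over both 2D-iH libraries and 0 over both iHLO libraries (95% counting interval of the ratio 0 to 0.725), at least 1.15-fold lower with 3 counts per library as the limit. Thy1, at 1 count against 0, was too low for a comparison.

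Pdgfrb moved the other way. The 85 counts in iHLO against 1 in 2D-iH gave a ratio of 88.8 (95% counting interval 15.5 to 3549), and the fitted log2 fold change was 6.20 (SE 0.65, adjusted p = 1.75e-06). The level reached in iHLO was 0.247% of that in Fib and lay below both livers. Among the fixed lists, the other platelet-derived growth factor receptor gene, Pdgfra, rose as well, from 15 and 16 counts to 209 and 73 (log2 fold change 3.30, SE 0.47, adjusted p = 2.97e-05), and the iHLO libraries differed almost 3-fold for it. Of 12 hepatic stellate cell genes only 4 could be tested, of which 1 was higher (Hgf, hepatocyte growth factor, log2 fold change 2.70, SE 0.47, adjusted p = 0.000198) and 2 were lower, beside 38.1% and 33.9% of all genes. The summed CPM of these 12 genes fell from 414 and 429 in 2D-iH to 182 and 219 in iHLO. Lrat, the retinol esterifying enzyme of stellate cells, was at 0 counts in both iHLO libraries, and Rgs5, a pericyte gene, was at 0 and 2 counts. Endothelial markers rose with Pdgfrb in these organoids without iECs. Of 8 tested markers 6 were higher and 0 lower, and their summed CPM went from 500 and 505 to 1261 and 1400. In iHEA these markers summed to 892 and 974 CPM, below iHLO, whereas Pdgfrb stood at 2.27 and 1.70 CPM in iHEA against 1.35 and 1.28 in iHLO. The part of the endothelial markers in the change of Pdgfrb was not tested.

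Between iHEA and 2D-iHE, the same contrast in the presence of iECs, 5 of 8 genes were lower (Vim, Twist1, Snai2, Zeb1 and Zeb2), 1 was higher (Pdgfrb) and 2 were not called (Acta2 and Prrx1), where 70.8% of all genes were called, 36.7% higher and 34.2% lower. Of the 8 tested genes, 4 were called lower by at least 2-fold, against 11.3% of all tested genes. Snai2 had a log2 fold change of -2.29 (SE 0.22, adjusted p = 7.97e-07), Vim of -1.43 (SE 0.084, adjusted p = 5.29e-09), Twist1 of -1.42 (SE 0.30, adjusted p = 0.000826) and Zeb2 of -1.30 (SE 0.093, adjusted p = 3.59e-08). Zeb1 fell by 0.53 on the log2 scale (SE 0.077, adjusted p = 3.89e-05), a smaller step. Pdgfrb rose by 4.37 (SE 0.46, adjusted p = 1.92e-06), from 2 and 4 counts to 75 and 48. Acta2 had -0.38 (SE 0.27, adjusted p = 0.221) and Prrx1 -0.35 (SE 0.42, adjusted p = 0.469). Postn held 43 counts against 2, a ratio of 22.1 (95% counting interval 5.76 to 188), but without iHEA library 1 the count was 0. This contrast shares no library with that of iHLO and 2D-iH, but both came from the same fit with shared scaling, filter and spread, so their p-values are not independent.

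**Figure D3:**
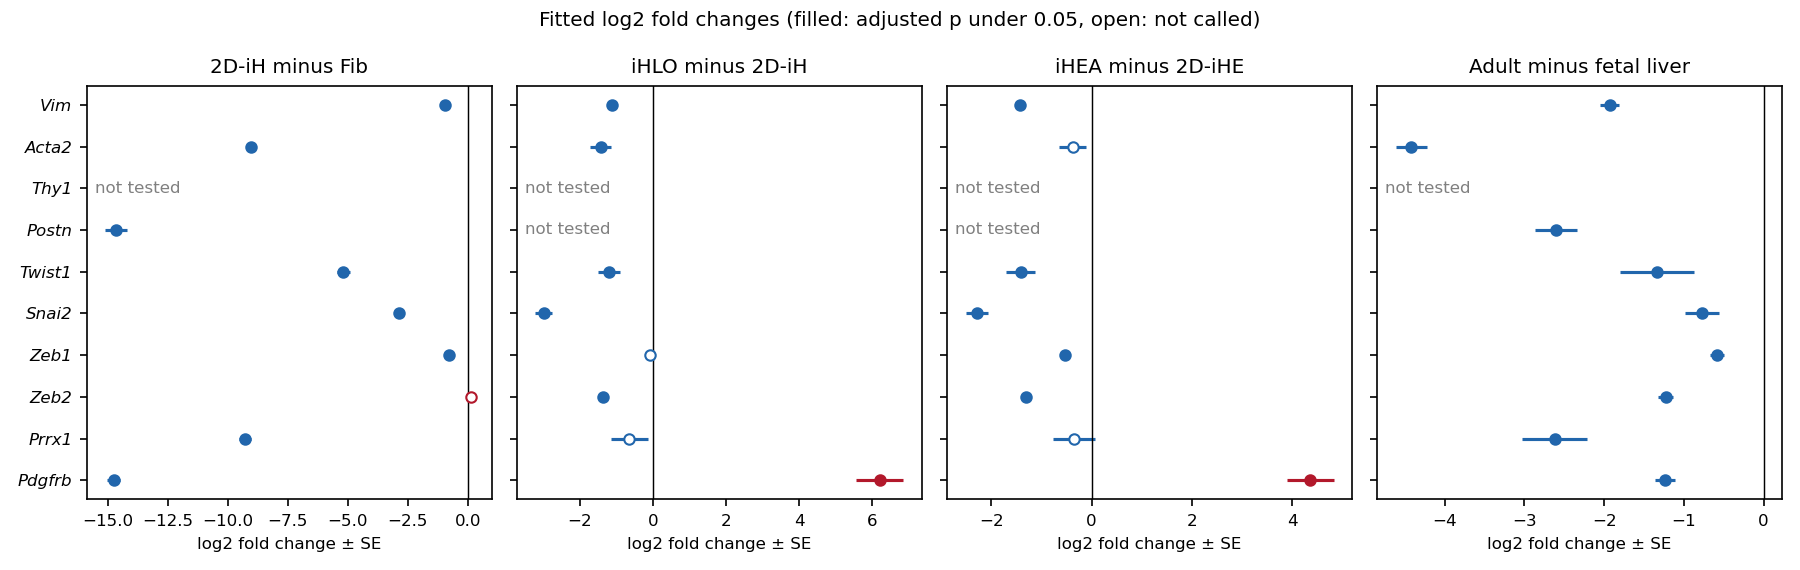
Fitted log2 fold change ± SE of each gene in 4 comparisons (x axes differ between panels), filled where the adjusted p was under 0.05. Zeb2 is the open point near 0 in the first panel (0.15), and Pdgfrb is the only gene called higher in the 3D panels (6.20 and 4.37).

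The same lists were counted in 3D. Between iHLO and 2D-iH, where 33.9% of all genes were called lower and 38.1% higher, 9 of 12 tested mesenchymal transcription factors were lower and 2 higher, with Osr1 (-3.70, SE 0.31, adjusted p = 1.83e-07) and Snai1 (-3.03, SE 0.23, adjusted p = 7.66e-08) among the largest decreases on the log2 scale. Snai1, the closest relative of Snai2, fell from 8.24 to 0.957 CPM. Of 7 tested contractile genes 4 were lower and 0 higher, and Cald1, caldesmon, fell from 448 to 20.1 CPM (log2 fold change -4.41, SE 0.11, adjusted p = 2.13e-12). Sparc, a matrix glycoprotein, fell from 361 to 61.1 CPM, and Fap, a fibroblast protease, rose from 0.160 to 0.833 CPM. Of 13 tested stromal surface and matrix genes 6 were lower, 3 higher and 4 not called, with a median of 0.0677 against 0.0358 for all genes. Of 18 tested epithelial genes 11 were higher and 4 lower, and Epcam, whose promoter is given above, rose from 14.3 to 213 CPM (log2 fold change 3.96, SE 0.085, adjusted p = 5.2e-13). With iECs, where 34.2% of all genes were called lower and 36.7% higher, the counts were 8 lower and 2 higher of 12 transcription factors, 5 lower and 0 higher of 7 contractile genes, 6 lower and 4 higher of 13 stromal genes, and 11 higher and 3 lower of 18 epithelial genes.

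**Figure D4:**
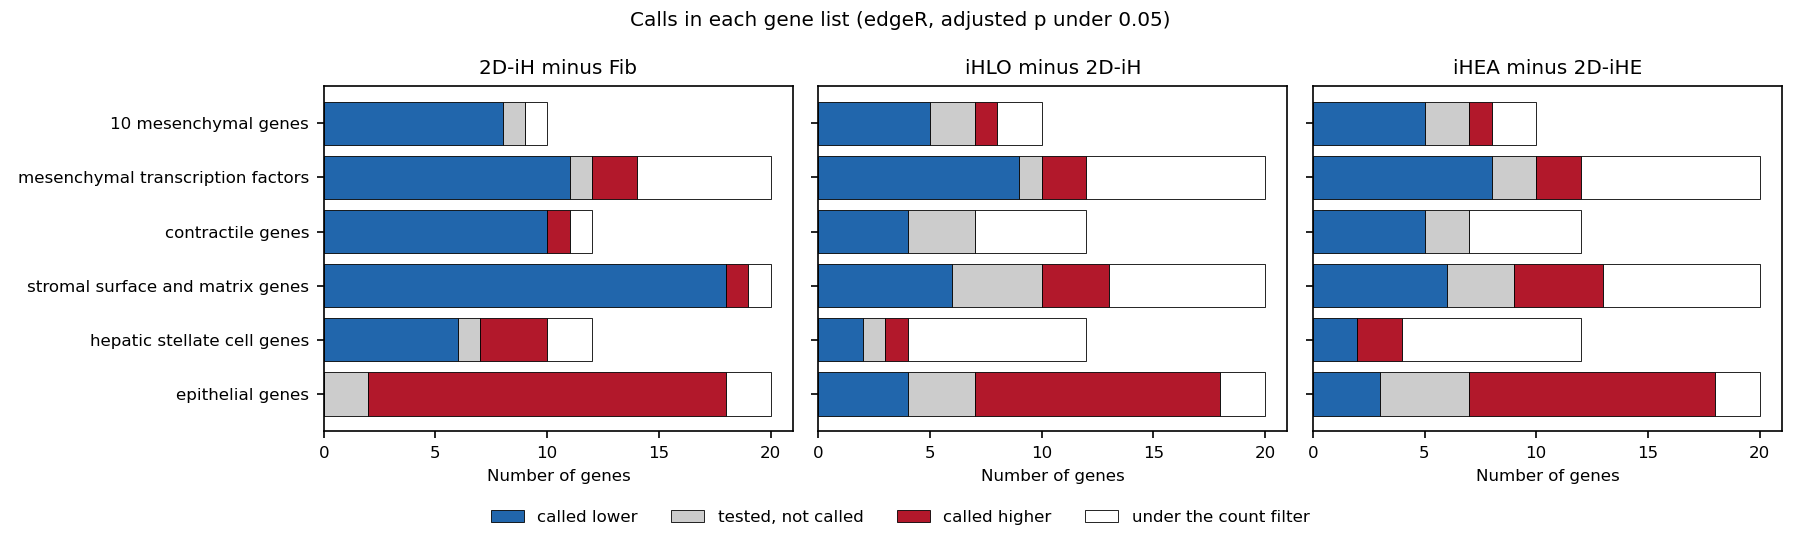
Number of genes called lower (blue), tested but not called (grey), called higher (red) and under the count filter (white) in 6 lists and 3 comparisons. Epithelial genes were called higher in 16, 11 and 11 cases, and contractile genes lower in 10, 4 and 5.

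The third question was whether the iECs changed these genes. In the monolayers, 0 of 8 tested genes were called between 2D-iHE and 2D-iH by edgeR, where 7.7% of all genes were called, 0 of 8 had an unadjusted p under 0.05, and DESeq2 called 0. Vim (log2 fold change 0.17, adjusted p = 0.257) gained a call without a filter, with the replicate block and with only the libraries of the comparison (adjusted p = 0.0117 to 0.0157). Log2 fold changes ran from 0.091 to 2.43 in size. The largest was that of Pdgfrb, at 6 counts against 1 (ratio 6.45, 95% counting interval 0.782 to 297, adjusted p = 0.237). In 3D, 0 of 8 genes were called between iHEA and iHLO by edgeR, where 2.31% of all genes were called, 2 had an unadjusted p under 0.05 (Acta2 and Zeb1) and DESeq2 called 0. Zeb1 had a log2 fold change of -0.28 (SE 0.077, adjusted p = 0.0878) and Acta2 of 0.80 (SE 0.30, adjusted p = 0.244). Zeb1 gained a call without a filter (-0.28, adjusted p = 0.00439) and Snai2 with the replicate block (0.99, adjusted p = 0.0189). Without iHEA library 1, 2 genes were called, Zeb1 (-0.37, adjusted p = 0.0108) and Vim (-0.31, adjusted p = 0.00117). Vim was at 739 CPM in library 1 and at 589 in the other iHEA library. Among the listed genes, Col1a1 was higher in 2D-iHE than in 2D-iH (log2 fold change 1.96, SE 0.20, adjusted p = 0.000101) and lower in iHEA than in iHLO (-1.49, SE 0.33, adjusted p = 0.0382). It stood at 2.76, 10.5, 1.51 and 0.522 CPM in 2D-iH, 2D-iHE, iHLO and iHEA, and the difference between these effects was -3.45 (SE 0.39, adjusted p = 0.000489). The lower level in iHEA lost its call when any 1 of the iHLO libraries or the unnumbered iHEA library was left out (adjusted p = 0.0536 to 0.316), with only the libraries of the comparison (adjusted p = 0.209) and with all 14 libraries (adjusted p = 0.336). Prrx2, a paralogue of Prrx1, was lower in 2D-iHE than in 2D-iH (-0.86, SE 0.12, adjusted p = 0.000898). Fbln2, a matrix gene, was higher in iHEA than in iHLO (1.0098, SE 0.24, adjusted p = 0.0493). This call was lost with DESeq2 (adjusted p = 0.165), with only the libraries of the comparison (adjusted p = 0.199) and with all 14 libraries (adjusted p = 0.0514). It was also lost without either iHLO library, and the log2 fold change of Fbln2 ran from 0.35 to 1.44 over 13 alternatives. Of 18 tested epithelial genes 3 were lower with iECs in 2D (Elf3, Krt19 and Ocln, -0.34 to -0.31). Each of these 3 lost its call in some fits without 1 library. Over 13 alternatives Elf3 ran from -0.48 to -0.24, Krt19 from -0.41 to -0.24 and Ocln from -0.34 to -0.28. In 3D 4 of the 18 were higher, among them the claudin gene Cldn4 (1.59, SE 0.16, adjusted p = 0.000335) and Epcam (0.57, SE 0.068, adjusted p = 0.000866), and 5 were called higher in the interaction. Of 8 tested endothelial markers, 3 were lower with iECs in 2D and 4 in 3D, and 0 were higher in either.

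The difference between the iEC effect in 3D and that in 2D was tested directly as an interaction. Of 8 genes, 1 was called, where 3.02% of all genes were called and 1.71% were called lower, and this was Zeb1 (-0.43 on the log2 scale, SE 0.11, adjusted p = 0.0499948). The iEC effect on Zeb1 was 0.15 (SE 0.075) in 2D and -0.28 in 3D, and neither passed the test on its own. The call was lost in 7 of 16 alternatives, 5 of which left out 1 library, and the adjusted p ranged from 0.000978 to 0.243. Of the 8 genes, 3 had an unadjusted p under 0.05 (Vim, Acta2 and Zeb1). Vim gained a call without a filter (-0.31, adjusted p = 0.00109) and without iHEA library 1 (-0.48, adjusted p = 0.000131), and Snai2 with the replicate block (1.13, adjusted p = 0.0107) and without the unnumbered iHEA library (1.05, adjusted p = 0.0403).

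The livers gave the tissue level of the same genes. In bulk tissue, fewer cells of a type and less RNA per cell cannot be told apart. Between adult and fetal liver, 9 of 9 tested genes were lower in the adult, where 83.6% of all genes were called and 44.4% were called lower. Of these 9 genes, 7 were lower by at least 2-fold, against 27.4% of all genes. Acta2 had the largest change, 21.4-fold (log2 fold change -4.42, SE 0.20, adjusted p = 2.31e-12), followed by Prrx1 (-2.62, SE 0.41, adjusted p = 1.62e-05) and Postn (-2.60, SE 0.26, adjusted p = 1.89e-07). Vim (-1.93, SE 0.12), Pdgfrb (-1.24, SE 0.13) and Zeb2 (-1.23, SE 0.092) fell by 2.34-fold to 3.81-fold. Snai2 (-0.77, SE 0.21) and Zeb1 (-0.58, SE 0.088) fell by less. Twist1 had -1.34 (SE 0.47, adjusted p = 0.0148), and it lost its call without either adult library (adjusted p = 0.0539 and 0.0941), without fetal library 2 (-0.30, adjusted p = 0.408) or with only the libraries of the comparison (adjusted p = 0.0527). Postn lost its call with DESeq2 (adjusted p = 0.164). After TMM scaling Thy1 went the other way, at 3.40 and 2.47 CPM in the adult against 0.883 and 1.39 in the fetal libraries. With the gene added to the fit, its log2 fold change was 1.37 (SE 0.28, adjusted p = 0.000522). The counts behind it were 52 and 39 against 30 and 43. Total counts in place of TMM moved the median of all genes by -1.42 here, so the direction of Thy1 rests on the scaling. Thy1 was not refitted with total counts.

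Cell type markers moved between the livers too. All 7 tested erythroid markers were lower in the adult, with summed CPM of 551 and 593 against 30930 and 33000. Of 7 tested macrophage and leukocyte markers, 6 were higher in the adult, at 1340 and 1391 CPM against 262 and 314 CPM, and 6 T cell markers, a list without Thy1, summed to 8.24 and 8.55 CPM in adult and 6.06 and 6.35 CPM in fetal liver. The only T cell marker tested, the kinase gene Lck, was lower in the adult (log2 fold change -0.92, SE 0.22, adjusted p = 0.00116). Their part in the results was not tested. Hepatic stellate cell genes were split, with 5 of 10 higher and 5 lower in the adult. Contractile genes were lower in 9 of 11 cases, stromal surface and matrix genes in 14 of 19 and mesenchymal transcription factors in 12 of 14, where 44.4% of all genes were called lower. In these lists, 5 stromal genes, 1 contractile gene and 1 transcription factor were higher, where 39.2% of all genes were called higher. Col1a1 had a log2 fold change of -5.16 (SE 0.24, adjusted p = 3.5e-12) and Actg2, a smooth muscle actin gene, -6.67 (SE 0.32, adjusted p = 2.05e-11), whereas Snai3 was higher by 6.67 (SE 0.22, adjusted p = 4.92e-14).

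Between iHLO and adult liver, 8 of 9 tested genes were called, where 85.5% of all genes were called. The 2 genes higher in iHLO were Vim (log2 fold change 3.73, SE 0.13, adjusted p = 6.51e-14) and Zeb1 (0.81, SE 0.087, adjusted p = 2.26e-07), where 49.3% of all genes were called higher and 36.2% lower. The 6 that were lower were Postn, Pdgfrb (-3.88, SE 0.21, adjusted p = 2.46e-11), Acta2 (-3.02, SE 0.43, adjusted p = 5.76e-06), Snai2 (-2.27, SE 0.29, adjusted p = 2.07e-06), Prrx1 (-1.97, SE 0.78, adjusted p = 0.0285) and Zeb2. Postn and Thy1 were at 0 counts in both iHLO libraries and were at least 196-fold and 31.7-fold lower than in adult liver, with 3 counts per library as the limit. Zeb2 was lower by 0.87 (SE 0.10, adjusted p = 6.69e-07) after TMM scaling but higher by 0.48 with total counts, and Twist1 was not called (-1.05, SE 0.64, adjusted p = 0.133), though DESeq2 called it (adjusted p = 0.0243), as did edgeR without a filter (adjusted p = 0.00684) and with only the libraries of the comparison (adjusted p = 0.00868). Prrx1 lost its call when any 1 of the 4 libraries was left out (adjusted p = 0.0621 to 0.0996) and with total counts (-0.63, adjusted p = 0.47). Total counts moved the median of all genes by 1.35 in this comparison and by -1.42 between the livers, where albumin alone (Alb) took 23.6% and 22.5% of adult counts, whereas DESeq2 size factors moved it by -0.27 and 0.14 and by -0.15 between 2D-iH and Fib. The stellate, leukocyte and erythroid genes were lower in iHLO in 10 of 10, 7 of 7 and 7 of 7 tested cases, and Lrat and Adgre1 were at 0 counts in both iHLO libraries. Of 14 tested mesenchymal transcription factors, 6 were higher and 3 lower in iHLO, with a median of 1.66 against 0.262 for all genes. Tbx15 (log2 fold change 9.28, at 0 CPM in adult liver) and Runx2 (5.66) were higher, and Snai3 (-6.60) was lower. Contractile genes were lower in 9 of 11 cases and higher in 1, and stromal genes lower in 14 of 19 and higher in 4. Of 18 epithelial genes, 11 were higher and 6 lower.

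For each of the 10 genes, the genes with the closest pattern over the 7 condition means of log2 CPM were listed, as a description without a test, since the means share libraries and scaling. Vim was closest to Pign (r = 0.998) and Plxna1 (r = 0.998), Twist1 to Ankrd44 (r = 0.998) and Eya4, Prrx1 to Pappa (r = 0.998) and Aspn, and Postn to Cavin3 and Dkk3 (both r = 0.996). Acta2 was closest to Adgrl3, Thy1 to Pcsk5, Pdgfrb to Zfp503, Snai2 to Plekhh2, Zeb1 to Pcdhgc3 and Zeb2 to Cops3, with r from 0.987 to 0.996. None of the 10 genes was among the 2 closest genes of another, a narrow cut. Between pairs of the 10 genes, r ran from -0.226 (Vim and Pdgfrb) to 0.972 (Twist1 and Prrx1), with Thy1 and Postn at 0.965.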

How the data were processed

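RNA was measured in 14 libraries of 7 conditions. The deposited values were whole-number counts per gene, which the authors made from paired-end reads with HISAT2 on the mouse genome (GRCm38; mm10 in the submitters' processing notes), HTSeq, Cufflinks and, per the notes, Trimmomatic 0.36. The methods' equalised log2 values are not in the table. Pooling and strand setting are not given in the sources used here.

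Counts were analysed as deposited with edgeR 4.0.16 in R 4.3.3 (TMM, glmQLFit, glmQLFTest, Benjamini-Hochberg) and with DESeq2 1.42.0 as an alternative. Genes needed a mean log2(count + 1) of at least 3. The 5 comparisons among cultures used the 8 culture libraries, and the 3 others used all 14. Because the counts hold 2 libraries per condition (20851489 to 35143325 counts each), the spread was shared across conditions. The column of 1 iHEA library carries 2 numbers that point to different samples and was used as an unnumbered replicate. Replicate numbers did not pair the libraries, since deviations of same-numbered libraries correlated at -0.07 to 0.048 over 15 pairs. Alternatives were other scalings, other filters, DESeq2, other sets of libraries, the replicate block and leaving out each library. The script was tested on simulated data. CPM divides counts by the TMM-scaled total, and the fold of a gene at 0 counts was computed against 3 counts per library.

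The members and lists were chosen with earlier results of these data known. All 10 genes were named in every comparison. From 4 lists, up to 3 called genes without overlap and with the largest fold change were named, and the 2 most similar genes per member. Lrat, Rgs5, Hgf, Lck and Adgre1 were named after their values were seen. Gene positions came from GENCODE M21 (GRCm38) and promoters from RefSeq.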

Additional observations from a re-analysis of the deposited data

Results flagged for a closer look

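Zeb1 was noted because the iEC effect on it differed between 3D and 2D by the test of the interaction (log2 difference -0.434, SE 0.107, adjusted p = 0.0499948 by edgeR's quasi-likelihood test). Zeb1 was at 45.8 and 43.9 CPM in 2D-iH, 48.0 and 50.3 in 2D-iHE, with iHLO at 42.6 and 37.8, iHEA at 34.9 and 31.0, and both 2D-iHE libraries lay above the 2D-iH libraries and both iHEA libraries below the iHLO libraries. The adjusted p ranged from 0.000978 to 0.243 over 16 alternatives, and 7 of them lost the call.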

How the results depend on the processing

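Of the values of the 10 genes recomputed under the alternatives, 795 kept their direction and their side of the threshold, 17 lost their call, 15 gained one and 19 changed sign. The number of the 10 genes called stayed within 1.5 times the main count under all alternatives for 2D-iH against Fib (8 to 10), iHEA against 2D-iHE (4 to 7), adult against fetal liver (8 to 10) and iHLO against adult liver (7 to 10). It was 3 for iHLO against 2D-iH with a minimum mean log2(count + 1) of 5, where 4 of the 10 genes were tested. Without a filter it was 1 for 2D-iHE against 2D-iH, 2 for iHEA against iHLO and 3 for the interaction. It was 1 for 2D-iHE against 2D-iH with only the libraries of that comparison, and 0 for the interaction with the untested genes added or with all 14 libraries. Leaving out 1 library gave 0 to 2 for iHEA against iHLO and 0 to 2 for the interaction. Zeb1 lost the interaction call without either 2D-iH library, either 2D-iHE library or iHLO library 1. The cause was not tested.

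Replicate numbers share only a name here. With the replicate number as a block, over the numbered libraries, 1 gene was called for 2D-iHE against 2D-iH (Vim), 1 for iHEA against iHLO (Snai2) and 2 for the interaction. Zeb2 gained a call for 2D-iH against Fib, and no other count among the 10 genes moved by over 1.5 times. Over all genes the block gave 1870, 579 and 708 calls in these 3 comparisons, against 1032, 310 and 405. No filter gave 1577, 881 and 901, only the libraries of the comparison 2042 and 83 for the first and second, all 14 libraries 252 for the interaction, and leaving out 1 library 257 to 418, 96 to 797 and 132 to 995.

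Most sign changes were in values that had not been called, and the exception was Zeb2 in iHLO against adult liver. Zeb2 in iHEA against iHLO was 0.00077 with DESeq2 size factors, 0.0196 with total counts, 0.0013 with DESeq2, 0.13 with the block, 0.00014 with only these libraries, 0.047 without iHLO library 1 and 0.12 without the unnumbered iHEA library. Zeb2 in 2D-iH against Fib was -0.0041 with DESeq2 size factors and -0.011 with DESeq2. In iHLO against adult liver, total counts gave 0.28 for Twist1 and 0.48 for Zeb2. Prrx1 in iHEA against 2D-iHE was 0.046 with the block and 0.024 without the unnumbered library, and Twist1 in iHEA against iHLO was 0.10 and 0.055. Vim in iHEA against iHLO was 0.013 without the unnumbered library, and Twist1 in 2D-iHE against 2D-iH was -0.0088 without 2D-iH library 1. In the interaction without iHEA library 1, Zeb2 was -0.087 and Prrx1 -0.30, and without the unnumbered library 0.21 and 0.67. Without iHEA library 1, Prrx1 in iHEA against 2D-iHE was -0.95, and in iHEA against iHLO Vim was -0.31, Twist1 -0.21 and Zeb2 -0.18. Counts of 0 to 43 per library limit Thy1, Postn, Prrx1 and, in the monolayers, Pdgfrb in the cultures.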

Other observations

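Mesothelial and portal fibroblast genes were higher in 2D-iH than in Fib for 4 of 7 tested genes and lower for 2, with a median log2 fold change of 3.28, where 47.7% of all genes were called higher and 35.6% lower. Their summed level was 35.5 and 36.5 CPM in Fib, 1635 to 1905 in the monolayers, 349 to 431 in the 3D cultures, 26.8 and 28.0 in adult liver and 81.7 and 131 in fetal liver. Neural genes summed to 26.9 and 28.2 CPM in Fib, 54.5 to 58.5 in the monolayers, 17.5 to 25.5 in the 3D cultures, 7.92 and 8.68 in adult liver and 69.7 and 95.01 in fetal liver.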
